A study of Mus musculus with 4 samples.

Results

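The genes described here are the 8 neuronal nicotinic acetylcholine receptor subunit genes Chrna3, Chrna4, Chrna5, Chrna6, Chrna7, Chrnb2, Chrnb3 and Chrnb4, taken by name from the 25239 gene IDs of the tables. Each stood on 1 row per library, and 7 of the 8 reached the level required for testing, which was a TPM (transcript abundance per length, scaled to a fixed sum per library) of 1 or more in 2 or more libraries. The libraries were made from dissected mouse retina at E13.5 (embryonic day), 2 from retinas labelled control and 2 from retinas labelled Isl1cKO, a conditional knockout of the LIM-homeodomain transcription factor gene Isl1. The study asked how the retinal transcriptome differs when Isl1 is lost. The strain, the alleles, the Cre driver and the number of embryos in a library are not given in the sources used here. The labels do not say whether the libraries came from separate animals, so the p-values measure only the spread between these libraries, which may be partly technical.

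Nicotinic receptors are pentameric cation channels opened by acetylcholine. Most alpha subunits carry the main face of the acetylcholine binding site, beta2 and beta4 complete it, alpha5 and beta3 are accessory subunits that join other pairs, and alpha7 can form a channel by itself. Ganglion cells of the retina carry several of these receptors. During development of the retina, acetylcholine released by starburst amacrine cells drives waves of activity across the ganglion cells through these receptors. Some of the genes are linked on the chromosome, Chrna5 with Chrna3 and Chrnb4, and Chrnb3 with Chrna6.

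No subunit gene passed the test between the groups, and the 7 tested genes differed by -0.55 to 0.17 on the log2 scale. The abundant transcripts were those of Chrna3 and Chrna4, followed by Chrnb4 and Chrnb2, and these 4 genes made up nearly all of the subunit transcripts in every library. Both Isl1cKO values lay below both controls in 5 of the 7 (Chrna3, Chrnb4, Chrnb2, Chrna5 and Chrna7), against 30.0% of all tested genes. Both lay above in Chrna4 alone of the 7, against 14.9% of all tested genes. None of these differences passed. The 8 genes summed to 208 and 211 TPM in control replicates 1 and 2 and to 197 and 176 TPM in Isl1cKO replicates 1 and 2.

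The libraries must be read with some facts about the whole series in view. Aligned sequence, taken from the median ratio of coverage to FPKM, ranged from 12.6 to 14.3 gigabases, with the least in Isl1cKO replicate 2. Isl1 itself stood at 242 and 201 TPM in the controls, against 321 and 223 TPM in the Isl1cKO-labelled libraries (log2 fold change 0.28, SE 0.21, adjusted p-value 0.683 in limma). The gene-level value of the targeted gene was thus not lower. As the alleles are not given, this value cannot show whether the gene was disrupted, and every direction below rests on the labels. Of 14 lens genes, whose products fill the lens, 13 were lower, as were 8916 of all 13984 tested genes, and 10 passed the test. Some of the 10, such as Cryba2 and Crygb, were under 1 TPM in both Isl1cKO-labelled libraries. Those genes reached the level for testing only through the controls, where they are high. The 14 lens genes summed to 251 and 309 TPM in the controls and to 16.4 and 11.7 TPM in the Isl1cKO-labelled libraries. The 9 erythroid genes summed to 2903 and 4168 TPM against 1418 and 204 TPM, with Isl1cKO replicate 2 the lowest. Xist, expressed from the inactive X chromosome, stood at 0.501 TPM in Isl1cKO replicate 2 and between 209 and 287 TPM in the other libraries. The 2 Isl1cKO-labelled libraries thus differed in this mark of female cells and did not share 1 source of RNA. The test across all 13984 genes called 69 at an adjusted p-value under 0.05 in limma, which is 0.493%, and 65 of these were lower in the Isl1cKO-labelled libraries. The smallest absolute log2 fold change among the 69 was 0.96.

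The alpha3 subunit pairs with beta4 in the receptor known from autonomic ganglia, and alpha5 can join that pair. Their genes lie together on chromosome 9 of the mm10 build within 67665 bases. Chrna5 (chr9:54980880-55011419) is on the plus strand, and Chrna3 (chr9:55010117-55026562) and Chrnb4 (chr9:55028156-55048544) are on the minus strand. Chrna3 and Chrnb4 are 1593 bases apart. The extents of Chrna5 and Chrna3 in the tables overlap tail to tail by 1303 bases. The library kit marks strand, but whether strand was used when reads were assigned is not stated, so reads in that stretch could belong to either gene. The GENCODE M21 annotation of the same build gives each of the 3 genes a coding transcript of 6 exons. That of Chrna5 ends at position 55006918, before Chrna3 begins, so the overlap is one of the extents in the tables and not of these transcripts.

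The windows around the start sites of the 3 linked genes are shown because Isl1 is a homeodomain protein and TAAT is a core that many homeodomains bind. They run from 250 bases before to 50 bases after a start, come from RefSeq on GRCm38.p6, and are written in the direction of transcription, with every TAAT, read on either strand, in capitals. Chrna5 has 2 starts in that table, upstream (chr9:54980630-54980929, plus strand) and downstream (chr9:54981238-54981537, plus strand). The windows of Chrna3 (chr9:55026513-55026812) and Chrnb4 (chr9:55048495-55048794) are on the minus strand.
Chrna5 upstream start: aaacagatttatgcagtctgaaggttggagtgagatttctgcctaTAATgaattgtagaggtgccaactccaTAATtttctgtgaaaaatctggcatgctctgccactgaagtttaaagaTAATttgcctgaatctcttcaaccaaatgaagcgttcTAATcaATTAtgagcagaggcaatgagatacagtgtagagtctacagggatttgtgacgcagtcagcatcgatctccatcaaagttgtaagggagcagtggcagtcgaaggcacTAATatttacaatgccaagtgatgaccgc
Chrna5 downstream start: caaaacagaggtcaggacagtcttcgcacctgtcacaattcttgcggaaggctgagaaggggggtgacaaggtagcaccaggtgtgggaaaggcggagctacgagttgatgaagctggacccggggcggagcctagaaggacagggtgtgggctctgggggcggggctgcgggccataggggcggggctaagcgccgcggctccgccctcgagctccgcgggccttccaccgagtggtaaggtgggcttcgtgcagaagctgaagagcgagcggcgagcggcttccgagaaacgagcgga
Chrna3: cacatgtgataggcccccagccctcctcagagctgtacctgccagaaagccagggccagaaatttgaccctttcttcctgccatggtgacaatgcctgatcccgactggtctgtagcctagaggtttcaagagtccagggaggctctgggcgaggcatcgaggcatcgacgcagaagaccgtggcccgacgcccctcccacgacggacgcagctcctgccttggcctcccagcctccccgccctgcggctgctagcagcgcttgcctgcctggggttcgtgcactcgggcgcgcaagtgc
Chrnb4: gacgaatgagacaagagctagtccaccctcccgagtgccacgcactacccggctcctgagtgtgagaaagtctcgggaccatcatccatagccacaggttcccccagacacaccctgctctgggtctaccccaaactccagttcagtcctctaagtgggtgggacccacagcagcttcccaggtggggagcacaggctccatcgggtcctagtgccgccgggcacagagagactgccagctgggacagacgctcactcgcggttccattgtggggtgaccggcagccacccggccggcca

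TAAT was found 6 times in the upstream window of Chrna5 and 0 times in the other 3 windows, and 58.0% of the 32851 windows in the table hold at least 1. The upstream Chrna5 window is 41.3% G or C, against 65.0% for the downstream one, 64.3% for Chrna3 and 63.0% for Chrnb4. GGGCGG, the GC box read on either strand, occurred 4 times in the downstream Chrna5 window, 1 time in that of Chrna3 and 0 times in the others, and 35.7% of all windows hold it. CANNTG, the E-box bound by basic helix-loop-helix proteins, occurred 3 times in the Chrna3 window and 2 times in each of the other 3, and 72.3% of all windows hold it. Of the 8 genes 6 matched the table, with 7 windows, and the windows of Chrna4, Chrna7 and Chrnb2 also held 0 TAAT. Chrna6 and Chrnb3 had no entry. A match is a string of letters only, and its absence says only that these letters are not in the window.

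Chrna3 encodes the alpha3 subunit and was the highest of the 8 genes in each library. Its values were 95.6 and 99.6 TPM in the 2 controls, against 81.9 and 74.3 TPM in Isl1cKO replicates 1 and 2. Both libraries labelled Isl1cKO thus lay below both controls. The means were 97.6 ± 2.82 and 78.1 ± 5.37 TPM (SD, n = 2 each). On the scale of log2(TPM + 1), used for every fold change here and compressing those of low genes, the difference was -0.32 (SE 0.09, 95% interval -0.56 to -0.08). Its unadjusted p-value was 0.0205 and its adjusted p-value 0.312 in limma, so it did not pass.

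Chrnb4 encodes the beta4 partner and was the third most abundant member. It stood at 26.1 and 29.0 TPM in the controls, against 25.0 and 25.3 TPM in the Isl1cKO-labelled libraries, so the groups did not overlap but came close to each other. The difference was -0.12 (SE 0.09, 95% interval -0.36 to 0.12), and the adjusted p-value in limma was 0.672. It was -0.05 without control replicate 2, -0.20 without control replicate 1, and -0.07 with FPKM or median-ratio scaling and -0.06 after quantile normalization.

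Chrna5 encodes the accessory alpha5 subunit and was far below Chrna3 and Chrnb4. It stood at 4.28 and 5.17 TPM in the controls, against 3.72 and 3.13 TPM in the Isl1cKO-labelled libraries. Both of the latter were below both controls, by -0.37 on the log2 scale (SE 0.13, 95% interval -0.70 to -0.04), with an unadjusted p-value of 0.0365 and an adjusted p-value of 0.372 in limma. After quantile normalization the difference was -0.23. Its level against the other subunits is uncertain: its ratio of coverage to FPKM was 3.59 times below the library median in each of the 4 libraries, which none of the other 7 genes showed where the ratio exists. At the library median, its coverage would correspond to values between 0.870 and 1.44 TPM. With those values in place of the deposited TPM, an alternative chosen after seeing the data, the difference was -0.24 (adjusted p-value 0.451 in limma).

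The alpha4 and beta2 subunits form the most common receptor of the brain, and beta2 is needed for the cholinergic waves of the developing retina. Chrna4 (chr2:181022311-181039177, minus strand) had values of 54.8 and 52.8 TPM in the controls, against 62.5 and 58.6 TPM in the Isl1cKO-labelled libraries. Chrna4 was the only tested member with both Isl1cKO values above both controls, at means of 53.8 ± 1.41 and 60.6 ± 2.78 TPM (SD, n = 2 each). The difference was 0.17 (SE 0.08, 95% interval -0.06 to 0.39), and the adjusted p-value in limma was 0.524.

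Chrnb2 (chr3:89753448-89764632, minus strand) went the other way. It stood at 22.4 and 20.5 TPM in the controls, against 17.9 and 12.6 TPM in the Isl1cKO-labelled libraries, with replicate 2 the lowest. The means were 21.4 ± 1.38 and 15.3 ± 3.76 TPM (SD, n = 2 each). The difference was -0.48 (SE 0.18, 95% interval -0.97 to 0.002), with an unadjusted p-value of 0.0505 and an adjusted p-value of 0.414 in limma. Leaving out Isl1cKO replicate 2 gave -0.24, and leaving out Isl1cKO replicate 1 gave -0.72 (adjusted p-value 0.0852 in limma).

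**Figure D1:**
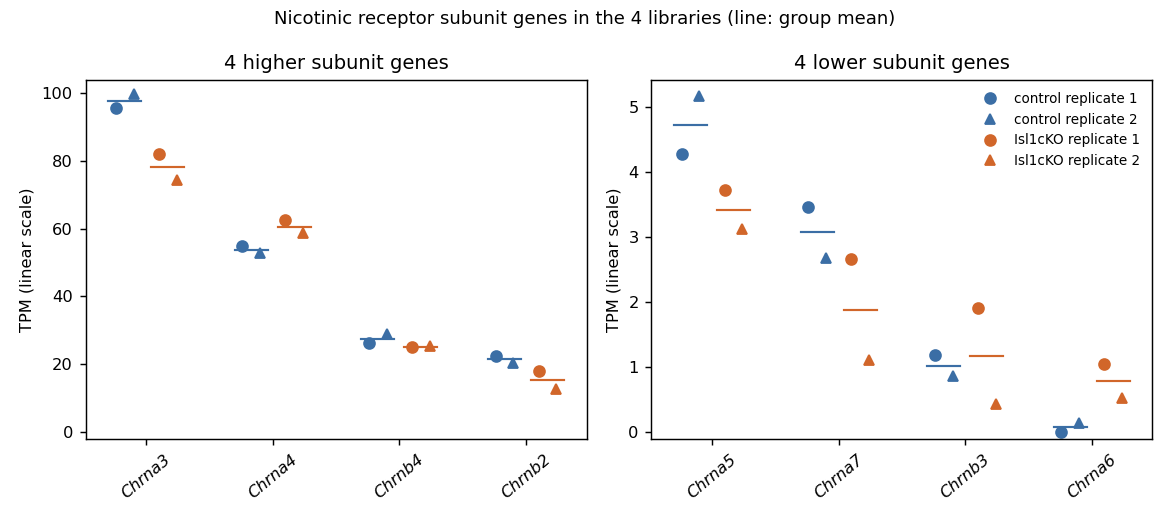
TPM of the 8 subunit genes in each library on linear axes, with the higher 4 on the left and the lower 4 on the right; blue marks control, orange Isl1cKO, circles replicate 1, triangles replicate 2, and lines the group means. Chrna3, Chrnb4, Chrnb2, Chrna5 and Chrna7 lie lower in both Isl1cKO libraries than in both controls, and Chrna4 and the untested Chrna6 higher. Chrnb3 and Chrna7 show the widest spread within Isl1cKO relative to their level.

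The proportions among these subunits were read within each library, where scaling between libraries has no part. The ratio of Chrna4 to Chrnb2 was 2.45 and 2.58 in the controls and 3.49 and 4.65 in the Isl1cKO-labelled libraries. The ratio of Chrna3 to Chrna4 was 1.74 and 1.89 in the controls and 1.31 and 1.27 in the Isl1cKO-labelled libraries. The ratio of Chrna3 to Chrnb4 was 3.66 and 3.44 against 3.27 and 2.93. In each of these 3 ratios the groups did not overlap, and the exact two-sided permutation p-value was 0.333, the smallest that 2 libraries against 2 allow (0.556 adjusted over the 5 ratios computed). The ratio of Chrna3 to Chrna5 overlapped between the groups (22.4 and 19.3 against 22.0 and 23.8), as did that of Chrnb2 to Chrnb4 (0.858 and 0.706 against 0.716 and 0.498). Each ratio shares a gene with another. As a share of the summed TPM of the 8 genes, Chrna3 made up 46.0% and 47.3% in the controls and 41.6% and 42.2% in the Isl1cKO-labelled libraries. Chrna4 made up 26.4% and 25.1% against 31.8% and 33.3%.

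**Figure D2:**
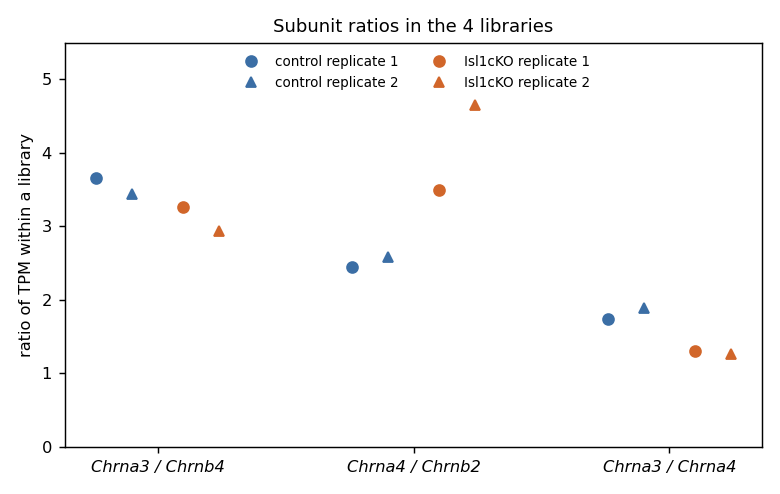
Ratio of the TPM of 2 subunit genes within each library, on an axis from 0, with the same colours and symbols for groups and replicates as in the plot of TPM. Of the 5 ratios computed, only those whose groups did not overlap are shown. Chrna4 over Chrnb2 is 2.45 and 2.58 in the controls and 3.49 and 4.65 in Isl1cKO, and the other 2 ratios shown are lower in Isl1cKO.

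The alpha7 subunit forms receptors with high calcium permeability. Chrna7 (chr7:63098692-63212526, minus strand, 10 exons) had values of 3.47 and 2.68 TPM in the controls, against 2.66 and 1.10 TPM in the Isl1cKO-labelled libraries. Isl1cKO replicate 1 lay just under control replicate 2, and replicate 2 well below. The difference was -0.55 (SE 0.29, 95% interval -1.33 to 0.23), the largest among the tested members, yet limma gave an adjusted p-value of 0.558. Leaving out Isl1cKO replicate 2 gave -0.15, leaving out replicate 1 of that group gave -0.95, and FPKM gave -0.33.

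The alpha6 and beta3 subunits occur together in receptors of the visual system and of dopamine neurons. Their genes lie tail to tail on chromosome 8, Chrnb3 (chr8:27368711-27399730) on the plus strand and Chrna6 (chr8:27403212-27413944) on the minus strand, 3481 bases apart. Both were close to the lower limit of these tables. Chrnb3 stood at 1.18 and 0.865 TPM in the controls, against 1.91 and 0.428 TPM in the Isl1cKO-labelled libraries. The controls lay between the Isl1cKO libraries, and the difference was 0.02 (SE 0.36, 95% interval -0.94 to 0.97, adjusted p-value 0.991 in limma). It was 0.53 without Isl1cKO replicate 2, -0.50 without Isl1cKO replicate 1, -0.10 without control replicate 2, 0.13 without control replicate 1 and -0.11 at a pseudocount of 0.1, so it has no stable sign.

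Chrna6 did not reach the level for testing. It was listed at 0 and 0.134 TPM in the controls and stood at 1.05 and 0.518 TPM in the Isl1cKO-labelled libraries. Its mean coverage per base was 0 and 0.660 in the controls and 5.60 and 2.57 in the Isl1cKO-labelled libraries. The groups thus did not overlap, at a mean depth per base of 5.60 or less. With no filter on low values the difference was 0.73 on the log2 scale, with an unadjusted p-value of 0.0177 and an adjusted p-value of 0.385 in limma, and it did not pass. Chrna6 and Chrnb3 were thus not shown to differ between the groups at this depth.

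The order of the levels in the controls was Chrna3, Chrna4, Chrnb4, Chrnb2, Chrna5, Chrna7, Chrnb3 and Chrna6, and the ranges of neighbours in that order did not overlap. The libraries labelled Isl1cKO had the same order of means. At the values its coverage corresponds to, Chrna5 would stand below Chrna7 in the controls and below the mean of Chrnb3 in the Isl1cKO-labelled libraries, so its place is uncertain. In the Isl1cKO-labelled libraries the ranges of Chrna7 and Chrnb3 overlapped, as did those of Chrnb3 and Chrna6. Within each of these libraries, Chrna7 was above Chrnb3 (2.66 against 1.91 TPM in replicate 1, 1.10 against 0.428 TPM in replicate 2). Chrnb3 was above Chrna6 in replicate 1 (1.91 against 1.05 TPM) and below it in replicate 2 (0.428 against 0.518 TPM). The mean level of Chrna3 exceeded that of 83.9% of tested genes and that of Chrna4 that of 73.7%, against 10.9% for Chrna7 and 1.92% for Chrnb3. The alpha subunit genes summed to 158 and 160 TPM in the controls and to 152 and 138 TPM in the Isl1cKO-labelled libraries. The beta subunit genes summed to 49.7 and 50.3 against 44.9 and 38.3 TPM.

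Counted together, 0 of the 7 tested members passed the threshold in limma, where 0.493% of all tested genes did, and 2 of 7 (Chrna3 and Chrna5) had an unadjusted p-value under 0.05, both lower, as did 8.92% of all tested genes in that direction. Both Isl1cKO values lay below both control values in 5 of 7, against 30.0% of all tested genes, and above them in 1 of 7, against 14.9%. These counts describe genes of the same 4 libraries, 3 of them from 1 cluster, and were given no test. The median log2 fold change of the 7 was -0.32, against -0.05 over all tested genes. Without Isl1cKO replicate 2 it was -0.15. The widest intervals were those of the low genes Chrna7 and Chrnb3. That of the more abundant Chrnb2 ran from -0.97 to 0.002, and the intervals of Chrna3, Chrna4, Chrna5 and Chrnb4 all lay between -0.70 and 0.39.

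Ganglion cells are the first neurons of the retina to be born, and most of their marker genes had larger differences than the subunit genes. Of 22 genes on the ganglion cell list, 21 were tested, and 19 of these were below control in the Isl1cKO-labelled libraries, with a median log2 fold change of -1.06. Of the 21, 0 passed the threshold in limma over all genes and 16 had an unadjusted p-value under 0.05. Over all 13984 tested genes, 8916 were lower, 1247 of them at an unadjusted p-value under 0.05 in limma. No gene of the list was at 0 in every library. Their summed level was 6583 and 6185 TPM in the controls and 4259 and 3820 TPM in the Isl1cKO-labelled libraries. Gap43, a growth cone protein, stood at 877 and 753 against 321 and 224 TPM, which gives -1.60 on the log2 scale (adjusted p-value 0.0903 in limma). Pou4f2, which encodes the ganglion cell factor Brn3b, stood at 126 and 124 against 135 and 120 TPM. Whether this list has a part in the lower values of Chrna3, Chrna5, Chrna7 and Chrnb2 was not tested. In whole retina, fewer cells of a type and less RNA per cell cannot be told apart.

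**Figure D3:**
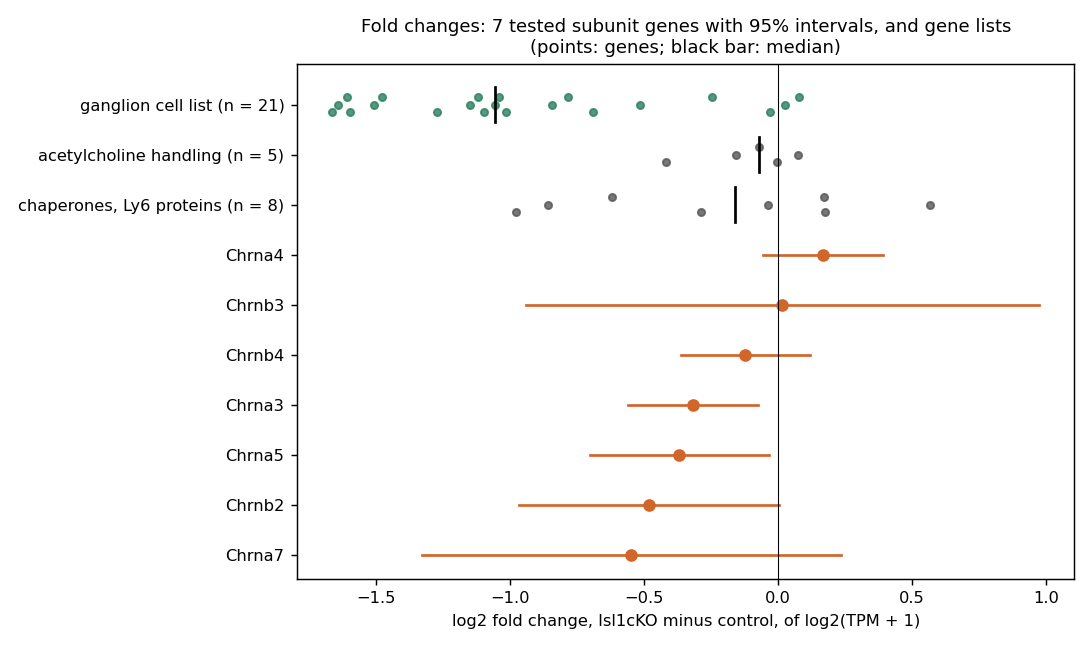
Log2 fold change (Isl1cKO minus control) on the log2(TPM + 1) scale; the lower 7 lines show the tested subunit genes with 95% intervals from limma, and the upper 3 lines show the genes of other lists as points with a black bar at the median. The subunit genes range from -0.55 to 0.17, and the median of the ganglion cell list is -1.06.

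The counts of the other lists stand beside 8916 lower of all 13984 tested genes. Of these lists, 5 of 6 tested amacrine genes were lower (median -0.51, 2 with an unadjusted p-value under 0.05). The amacrine sum, dominated by Pax6, which progenitors also express, was 612 and 590 TPM in the controls and 659 and 633 TPM in the Isl1cKO-labelled libraries. The retinal progenitor list had a median of -0.05 over 12 genes, with 7 lower and 5 higher and sums of 8209 and 7807 against 6889 and 7579 TPM. Of the starburst amacrine list, the future source of acetylcholine, 5 of 7 genes were tested, 4 were lower and 1 higher. The higher one, the transcription factor gene Fezf1, passed the threshold (0.710 and 0.769 against 2.52 and 2.25 TPM, adjusted p-value 0.0466 in limma). Both controls of Fezf1 lay under 1 TPM, so it reached the level for testing only through the Isl1cKO-labelled libraries. The sum of that list, nearly all Sox2, was 343 and 401 against 288 and 433 TPM. Medians of the lists for other cells were 0.17 for horizontal cells (4 tested), -0.45 for photoreceptor precursors (6), -0.29 for pigment epithelium (6, with Rpe65 at 0), -0.44 for periocular mesenchyme (3) and -0.34 for endothelium (2). No gene of these lists other than Fezf1 passed. Their part in the subunit values was not tested.

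The rest of the cholinergic machinery was read from lists of other nicotinic subunits, muscarinic receptors, acetylcholine handling genes, and chaperones and Ly6 proteins that act on the receptors. None of the 15 tested genes among these 32 passed the threshold in limma. Unadjusted, 4 were lower and 1 higher at a p-value under 0.05, against 1247 lower and 447 higher of all 13984 tested genes. Of the other 8 nicotinic subunits, Chrnb1, the beta subunit of the muscle receptor, was the only one tested, at 2.07 and 3.50 against 3.01 and 3.21 TPM. Chrna2, Chrna9 and Chrna10 were listed at 0 in every library. Of the 5 muscarinic receptors, Chrm3 alone was tested, at 7.56 and 7.64 TPM in the controls, against 5.77 and 5.37 TPM in the Isl1cKO-labelled libraries (log2 fold change -0.39, adjusted p-value 0.212 in limma). These genes, like Chat, Slc18a3 and Slc5a7 below, are named after their values were seen.

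Genes for making and packing acetylcholine were nearly silent. Chat, the synthesizing enzyme, was listed between 0 and 0.0230 TPM, and Slc18a3, the vesicular transporter, between 0 and 0.142 TPM. The choline transporter gene Slc5a7 stood at 1.78 and 1.27 against 1.12 and 0.667 TPM. Transcripts of the enzymes that break acetylcholine down were present, Ache at 11.4 and 7.002 against 9.81 and 8.12 TPM and Bche at 16.7 and 19.2 against 21.9 and 16.4 TPM. Their log2 fold changes were -0.003 and 0.08. Acly, which makes acetyl-CoA, and the choline transporter Slc44a1 had log2 fold changes of -0.16 and -0.07. Receptor transcripts therefore stood beside synthesis transcripts at or near 0 in both groups.

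Receptor assembly depends on chaperones of the endoplasmic reticulum. Ric3, a chaperone of alpha7 and other subunits, stood at 15.7 and 16.5 TPM in the controls, against 14.3 and 11.8 TPM in the Isl1cKO-labelled libraries (adjusted p-value 0.445 in limma). Tmem35a, which encodes the chaperone NACHO, stood at 25.9 and 22.6 against 25.9 and 21.4 TPM, and the groups overlapped. Among the Ly6 proteins, which bind the receptors or are related to proteins that do, Ly6h had the largest difference of these lists on the log2(TPM + 1) scale. It stood at 32.4 and 27.4 against 15.4 and 13.9 TPM, a difference of -0.98 (SE 0.12, adjusted p-value 0.0829 in limma). Lynx1 went the other way, at 6.58 and 6.07 against 8.07 and 12.0 TPM, a difference of 0.57 (adjusted p-value 0.372 in limma). Ly6e stood at 41.8 and 41.7 against 42.9 and 52.0 TPM, with a log2 fold change of 0.17. The related genes Lypd1 and Lypd6, named after their values were seen, were lower in both Isl1cKO-labelled libraries without passing. Lypd1 stood at 4.75 and 2.91 against 1.98 and 1.29 TPM, a difference of -0.86 (SE 0.24, adjusted p-value 0.305 in limma). Its ratio of mean TPM, Isl1cKO over control, was 0.427, lower than the 0.490 of Ly6h. Lypd6 stood at 6.91 and 5.71 against 4.53 and 3.06 TPM, a difference of -0.62 (SE 0.19, adjusted p-value 0.329 in limma).

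The surroundings of the linked genes were read from the 5 protein-coding genes on each side. Of the 10 neighbours of the Chrna5, Chrna3 and Chrnb4 cluster, all were tested and 0 passed the threshold in limma. Their log2 fold changes were above 0 in 3 and below 0 in 7, from -0.53 to 0.28, and 8916 of all 13984 tested genes were below 0. The nearest on the left, Psma4, a proteasome subunit gene 22.9 kb away, had a log2 fold change of 0.06. The nearest on the right, Ube2q2, a ubiquitin-conjugating enzyme gene 100.8 kb away, had -0.09. The lowest was Crabp1, a retinoic acid binding protein gene, at 644 and 615 against 439 and 434 TPM (adjusted p-value 0.126 in limma). The cluster's own values of -0.37, -0.32 and -0.12 lay within the range of the 10 neighbours, whose lower end was Crabp1 alone, 207.8 kb away. The next lowest neighbour, Tmem266 at -0.324 and 278.4 kb away, was above the value of Chrna5. Around Chrnb3 and Chrna6, 5 of 10 neighbours were tested and 0 passed, with log2 fold changes from -0.63 for Dusp26, a phosphatase gene, to 0.24 for Rab11fip1. Of these 5, Dusp26, Rnf122 and Tti2 lie far off, 3676 to 3736 kb from the pair. The nearest on each side, Tex24 and Poteg, were not tested, at 0.147 TPM or less in each library.

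**Figure D4:**
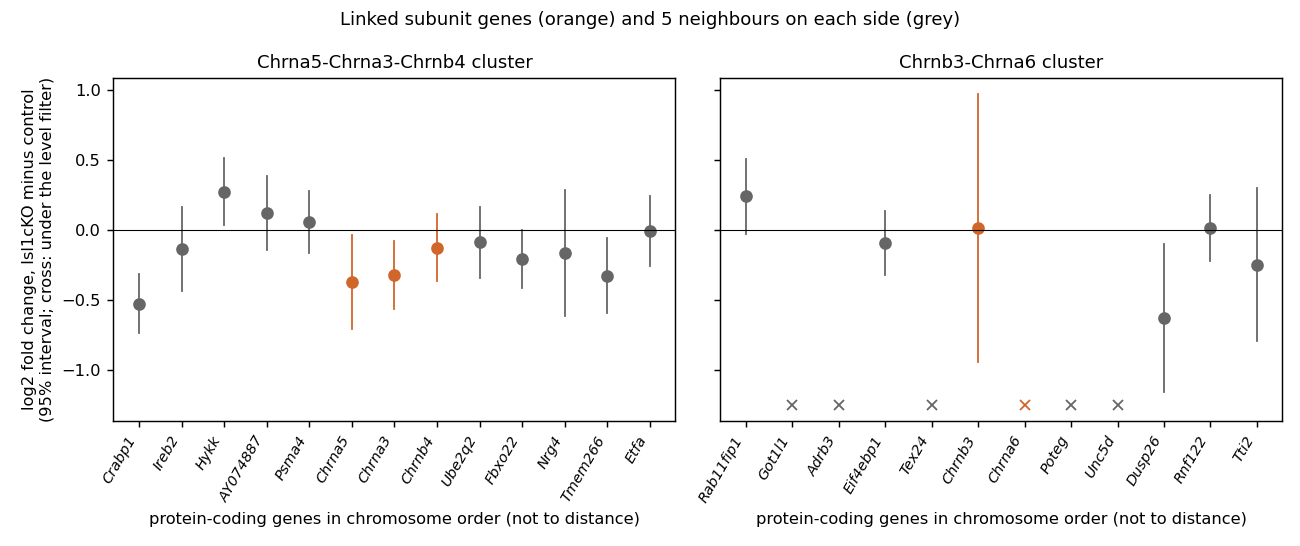
Log2 fold change (Isl1cKO minus control, 95% interval from limma) of the linked subunit genes in orange and of 5 protein-coding neighbours on each side in grey, in chromosome order and not to distance; crosses mark genes under the level filter, and their height has no meaning. The 3 orange genes on the left lie at -0.37, -0.32 and -0.12, within the range of the grey ones there, whose lower end is Crabp1 at -0.53.

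For each tested member, the 3 tested genes with the closest pattern were found by the Euclidean distance between the 4 values of log2(TPM + 1), each gene's mean over the 4 libraries taken off. Closest to Chrna3 were Cdh10, Clcn6 and Tmeff2, at distances from 0.0244 to 0.0311, and closest to Chrna4 were Cnpy2, Rnf13 and Stx18, from 0.0203 to 0.0278. Those of Chrnb2 were Gramd1b, Tmem169 and Cadm2, and those of Chrnb4 were Srsf4, Cd68 and Adcy3. Chrna5 had Il20rb, Acer2 and Rslcan18, Chrna7 had Dnajb14, Ubap1l and Snord23, and Chrnb3 had Gdf1, Scarna17 and H2ac19. No member was among the 3 closest to another. With 4 libraries and 13984 genes, close matches are easily found, and the distances describe these libraries only.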

How the data were processed

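RNA from 2 control and 2 Isl1cKO mouse retina libraries was poly(A)-selected and strand-specific, per the labels' protocols. The submitters' processing notes name HISAT2, SAMtools and StringTie among the tools, with no versions, and the build mm10. The authors deposited 1 table per library with coverage, FPKM and TPM per gene. The deposited TPM sum to 1000000 in each library. The deposited FPKM was the unit of an alternative only. The deposited coverage, a mean depth per base not scaled to library size, described depth. Its ratio to FPKM also gave the alternative values of Chrna5, which were fitted. Read counts are not in these units, so no count model was fitted and no counting interval computed.

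TPM were summed over repeated rows, which between 171 and 234 gene IDs per library had. The 13984 genes at 1 TPM or more in 2 or more libraries were fitted as log2(TPM + 1) in R 4.3.3 by limma 3.58.1, modelling genotype alone under a constant variance prior (4.47 total degrees of freedom). P-values were adjusted by Benjamini-Hochberg over all of them, with a threshold of 0.05. Intervals are not adjusted. The fit was also run on simulated data with independent normal noise, which does not show how many differences it misses in these libraries. Ratios used the exact permutation test of scipy 1.17.1. The members, gene lists and tests were chosen with earlier results of these data known. Named were all members, cholinergic genes past the threshold or at 10 TPM or more in a library, cluster neighbours and the closest patterns. Alternatives changed the pseudocount, filter, unit, scaling, variance prior, replicate block, gene set and libraries.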

Additional observations from a re-analysis of the deposited data

How the results depend on the processing

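Under each of 13 alternatives, 9 refitted with all 4 libraries and 4 with 1 library left out, 0 subunit genes passed the threshold in limma, with adjusted p-values from 0.0852 to 0.9998. Except for Chrnb3, each of the 7 tested genes kept its sign wherever it was fitted. Chrnb3 changed from 0.02 to -0.11 at a pseudocount of 0.1 and ranged from -0.50 to 0.53 with 1 library left out; the cause was not tested. The median over the subunit genes ranged from -0.47 to -0.15 with 1 library left out, lowest without Isl1cKO replicate 1 and highest without Isl1cKO replicate 2.

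The count of 69 genes over the whole table was 44 at a pseudocount of 0.1, 127 with FPKM and 110 with a mean-variance trend. It was 15 with no filter, where 19784 genes were tested, and 43 without crystallin, haemoglobin and sex-linked genes, which removes 526 genes. With 1 library left out it ranged from 10 (without control replicate 1) to 37 (without Isl1cKO replicate 1), with 14 without control replicate 2 and 18 without Isl1cKO replicate 2; the lone library of a group was assumed to vary like the other group. With the replicate block 265 genes passed, and 0 of 7 subunit genes, 4 of them at an unadjusted p-value under 0.05. The labels give no shared litter or day, the deviations of the libraries numbered 1 correlated at 0.126 across genes, and the numbers were not taken as pairs.

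Depth in reads is not given, so no limit of detection was set for genes listed at 0. Mean coverage per base was between 2.12 and 10.2 for Chrnb3 and between 4.31 and 7.11 for Chrna5.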

Other observations

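The antisense gene Chrna1os (chr2:73584860-73589208, plus strand) stood at 1.49 and 0.732 TPM in the controls, against 1.82 and 1.23 TPM in the Isl1cKO-labelled libraries. Chrna1, the muscle alpha subunit gene beside it on the minus strand, was at 0.0928 TPM or less in each library. Chrna1os was looked at after its values had been seen, and it did not pass (log2 fold change 0.27, adjusted p-value 0.702 in limma).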
